A study of Homo sapiens with 6 samples.

Results

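Activator protein 1 (AP-1) is a family of transcription factors that bind DNA as pairs, and this report covers 10 of its genes in cells treated with a γ-secretase inhibitor. The 10 were picked out of the tables by symbol, as members of the family: 4 FOS genes (*FOS*, *FOSB*, *FOSL1*, *FOSL2*), 3 JUN genes (*JUN*, *JUNB*, *JUND*) and 3 small MAF genes (*MAFF*, *MAFG*, *MAFK*). They were all found among the 58884 genes of the count tables, and 9 of them held enough reads to be tested. HSC-4 cells are a cancer cell line from a squamous carcinoma of the human mouth, and DAPT blocks γ-secretase, the protease that cuts activated Notch receptors free from the membrane. RNA was sequenced in 3 libraries from cells given 50 µM DAPT and 3 libraries from control cells, all at 24 h, and the labels give no further treatment or genetic change for either group. The paper names DMSO as the vehicle of the controls, whereas the count tables name them with the letters GM, so the presence of vehicle is open. The sources used here do not state whether the replicates of a group are separate cultures, and p-values measure only the spread between these libraries.

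FOS and JUN proteins share a basic region that touches DNA and a leucine zipper that joins the pair. JUN proteins can pair with each other, while FOS proteins need a partner from outside their subfamily, commonly JUN. FOS-JUN pairs read the TPA response element (TRE), and JUN-ATF pairs read the cyclic AMP response element (CRE). Small MAF proteins carry the same kind of zipper but no activation domain, and pair with NFE2-related and BACH factors at antioxidant response elements. In many cells growth factors, serum and stress raise *FOS*, *FOSB*, *JUN* and *JUNB* transcripts quickly and briefly through MAP kinases, and in keratinocytes AP-1 takes part in differentiation, migration and protease expression.

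*FOSL1* fell and *JUND* rose with DAPT, and the other 7 tested members did not pass the test. *FOSL1* (Fra-1) dropped by 28.5% and *JUND* increased by 31.2%. *JUNB*, the most abundant member, was called lower only when control replicate 1 was left out. The transcripts of *FOS* and *FOSB*, the classical serum-induced members, had few reads, 18 to 23 per library for *FOS* and 0 to 12 for *FOSB*.

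The counts summed to between 12276313 and 16317672 reads per library, so that 3 reads, taken as the smallest signal and covering counting error only, correspond to 0.187 to 0.248 CPM (read counts scaled by library size after TMM normalization). Across the series, 5281 of 15001 tested genes passed at an adjusted p under 0.05 (35.2%, quasi-likelihood test of edgeR, p-values adjusted by Benjamini-Hochberg over all tested genes), with 2574 higher and 2707 lower. Scaling by library size alone gave 3445 higher and 2156 lower genes. *HES1*, a Notch target, was at 42.5, 50.3 and 48.2 CPM in the controls and 27.9, 27.2 and 27.3 CPM with DAPT (log2 fold change -0.77, adjusted p = 7.2e-08, edgeR). The squamous marker keratin *KRT5* lay between 1276 and 2757 CPM, whereas *KRT14* held between 0 and 49 reads per library. The summed level of the 8 squamous markers was 5254 to 5523 CPM in controls and 3242 to 3380 CPM with DAPT, with 6 of the 8 lower, and the part of this shift in the member results was not tested.

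Control replicate 1 stood apart. Its 5 fibroblast markers summed to 545.9 CPM, against 56.6 and 55.2 CPM in the other controls and 48.8 to 53.5 CPM with DAPT. Outside control replicate 1, *COL1A1* alone gave nearly all of these sums. It was at 53.9 and 54.0 CPM in the other controls and 48.3 to 51.9 CPM with DAPT. *COL1A2*, a fibrillar collagen gene, had 3452 reads in this library and between 3 and 28 reads in each of the others. *DCN*, which encodes decorin, had 329 reads there and at most 2 elsewhere. This library also had the lowest level of the 3 controls in every member except *FOSL1* and *MAFF*. The part of the fibroblast transcripts in those levels was not tested. Values without control replicate 1 are therefore given beside the results, from a fit of the remaining 5 libraries in which 5618 of 15162 tested genes were called (37.1%). Of 5 leukocyte markers, *CD3E* was at 0 reads in every library and *PTPRC* at 2 reads or fewer. That list summed to 10.59 to 13.004 CPM in controls and 8.92 to 10.60 CPM with DAPT. *CD14* gave most of these sums and was called lower (log2 fold change -0.30, adjusted p = 0.0444, edgeR). Endothelial markers summed to 1.24 to 1.68 CPM in controls and 2.41 to 2.92 CPM with DAPT, and *PECAM1* held at most 1 read in any library. The endothelial cadherin gene *CDH5* carried that rise, with 5, 7 and 2 reads in controls and 36, 19 and 22 reads with DAPT (log2 fold change 2.42, adjusted p = 4.93e-05, edgeR), and its part in the member results was not tested. *VWF*, the other tested endothelial marker, did not pass (log2 fold change -0.44, adjusted p = 0.347, edgeR). In bulk RNA, fewer cells of a kind and less RNA per cell cannot be told apart.

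Of the 9 tested members, 2 were called (22.2%), 1 in each direction, against 35.2% of all tested genes. The background was 17.2% for higher and 18.0% for lower genes. In 4 members the DAPT libraries lay entirely to one side of the controls, a pattern seen in 46.3% of the tested genes. The members therefore showed no larger share of calls than the genes at large. Their median log2 fold change was 0.06, against 0.01 for all tested genes.

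**Figure D1:**
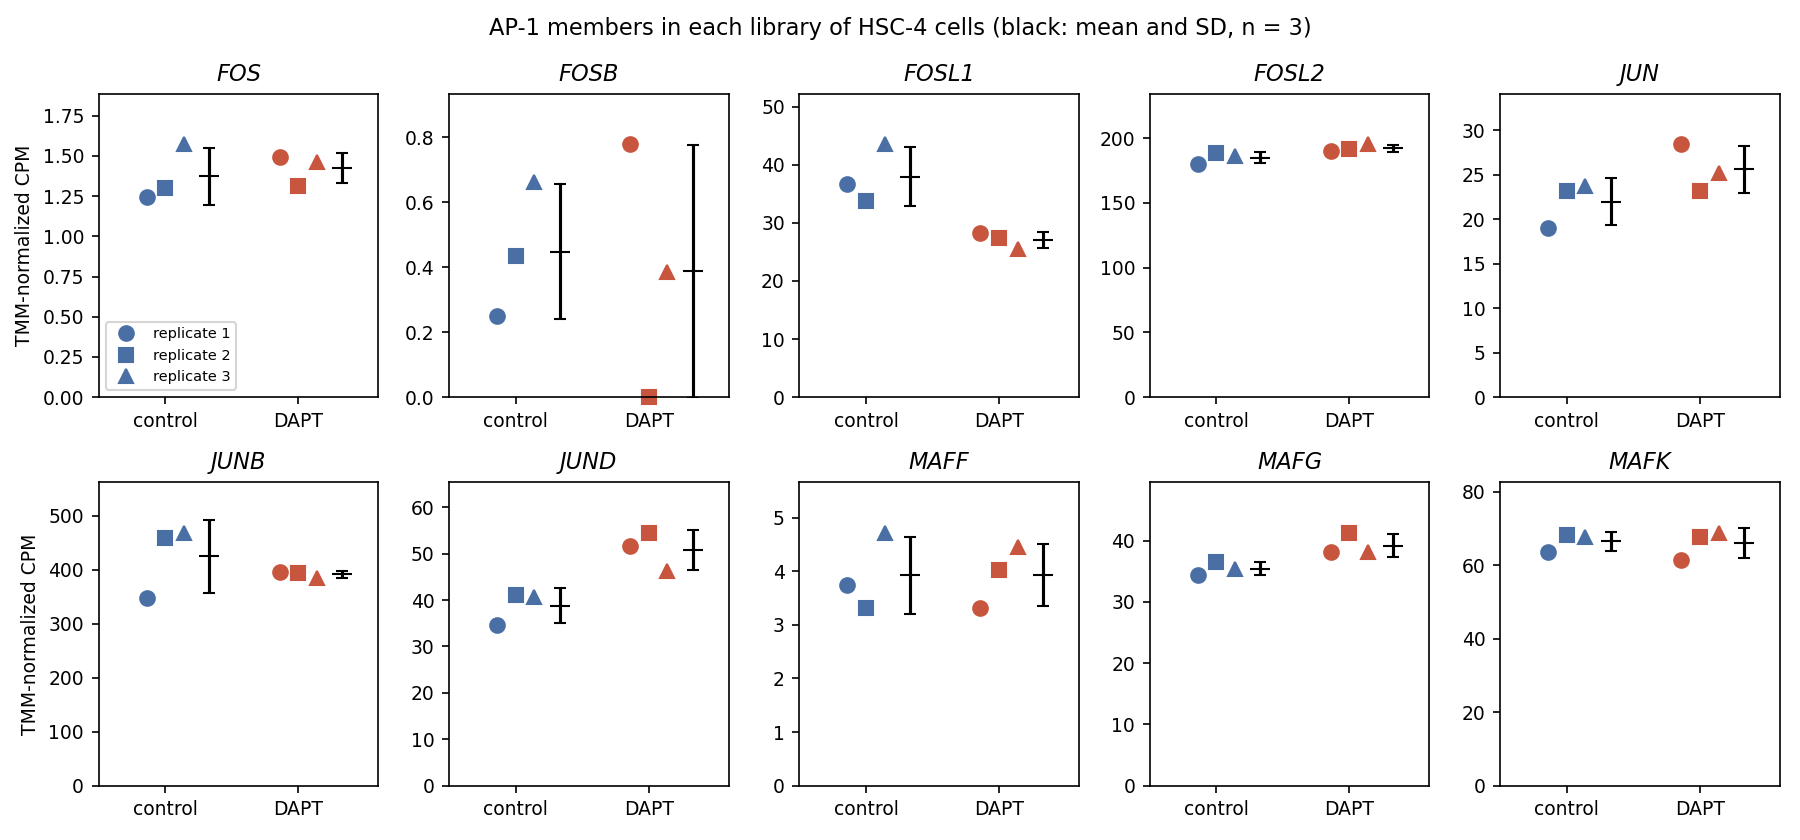
TMM-normalized CPM of each member (y axes, starting at 0 and scaled per gene) in the 3 control and 3 DAPT libraries, with symbols for replicate numbers and black bars for the mean and SD. The DAPT libraries of *FOSL1* lie below the controls, those of *JUND* lie above them, and control replicate 1 is the lowest point of *JUNB*.

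The FOS genes differed widely in level. *FOSL1* (ENSG00000175592, chromosome 11 of GRCh38, 65892049 to 65900573, reverse strand) encodes Fra-1, a FOS protein without the strong activation domain of FOS that is known from invasive carcinoma cells. It was at 36.6, 33.7 and 43.6 CPM in the controls and 28.3, 27.3 and 25.5 CPM with DAPT. Every DAPT library was below every control library, and the spread was wider among the controls (SD 5.06 CPM, n = 3) than with DAPT (SD 1.43 CPM, n = 3). The log2 fold change was -0.48 (standard error 0.09, 95% interval -0.67 to -0.30, adjusted p = 1.99e-04, edgeR). Without control replicate 1 it was -0.50 (adjusted p = 1.68e-04, edgeR). *FOSL1* kept its direction and its call under all 15 alternatives, with log2 fold changes from -0.56 to -0.38.

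*FOSL2* (ENSG00000075426, chromosome 2, 28392448 to 28417317, forward strand) encodes Fra-2, the closest relative of Fra-1. Its levels were 180.3, 188.7 and 185.9 CPM in controls and 189.99, 191.3 and 195.4 CPM with DAPT. The DAPT values were the higher ones without exception, but the gap was small. The log2 fold change was 0.06 (95% interval -0.04 to 0.15, adjusted p = 0.393, edgeR), an interval that leaves out changes beyond 1.11-fold upwards and 0.970-fold downwards. *FOSL1* and *FOSL2*, the 2 Fra genes, thus gave different calls, although the difference between the pair was not itself tested.

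*FOS* (ENSG00000170345, chromosome 14, 75278826 to 75282230, forward strand) encodes the founding member of the subfamily, whose transcript is short-lived. It had 20, 18 and 19 reads in the controls and 23, 18 and 19 reads with DAPT. The groups overlapped, and the log2 fold change was 0.07 (95% interval -0.49 to 0.62, adjusted p = 0.876, edgeR). The interval runs from 0.711-fold to 1.54-fold, so changes within that range cannot be told from no change. The paper cites an earlier report by its authors in which DAPT lowered *FOS* mRNA in HSC-4 cells at the same dose and time. The paper does not give the size of that fall, so it cannot be compared with the interval. For *FOS* here, falls to below 0.711-fold lie outside the interval and smaller falls lie inside it. *FOSB* (ENSG00000125740, chromosome 19, 45467995 to 45475179, forward strand), its serum-induced relative, had 4, 6 and 8 reads in controls and 12, 0 and 5 reads with DAPT and did not pass the filter on low counts. With no filter its log2 fold change was -0.11 with a 95% interval from -1.2 to 0.97 (adjusted p = 0.931, edgeR), so that its response could not be resolved.

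The JUN genes have no introns in the annotation. *JUND* (ENSG00000130522, chromosome 19, 18279760 to 18281622, reverse strand) encodes the JUN protein that is commonly present in resting cells and can restrain proliferation. It was at 34.6, 41.2 and 40.8 CPM in controls and 51.6, 54.5 and 46.2 CPM with DAPT. All DAPT libraries were above all controls, and control replicate 1 was the lowest of the 6. The log2 fold change was 0.39 (standard error 0.08, 95% interval 0.23 to 0.56, adjusted p = 6.03e-04, edgeR). Without control replicate 1 it was 0.31 (standard error 0.07, adjusted p = 0.00111, edgeR), and the call held under all 15 alternatives, with log2 fold changes from 0.31 to 0.46.

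*JUNB* (ENSG00000171223, chromosome 19, 12791486 to 12793315, forward strand) encodes a JUN protein that is abundant in epidermis and can oppose the action of JUN. Its level was 347, 458 and 469 CPM in controls and 396, 393 and 385 CPM with DAPT. Control replicates 2 and 3 lay above the DAPT libraries, and control replicate 1 lay below them. With all 6 libraries the log2 fold change was -0.12 (95% interval -0.39 to 0.16, adjusted p = 0.481, edgeR). Without control replicate 1 it was -0.24 (standard error 0.04, 95% interval -0.33 to -0.15, adjusted p = 8.12e-05, edgeR), a drop of 15.5% with no overlap between the groups. The share of genes without overlap in that smaller comparison was 58.3%, and 19.1% of genes were called lower. On the opposite strand, exons of *HOOK2* cover 14.2% of the exonic bases of *JUNB*. The same share was 18.1% for *MAFK*, from *TMEM184A*, and 4.27% for *MAFG*. Reads were counted with a strand setting, and that it keeps the sense strand was inferred from overlapping gene pairs rather than stated.

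*JUN* (ENSG00000177606, chromosome 1, 58780788 to 58784327, reverse strand), the founding JUN gene and a target of JNK signaling, was at 19.0, 23.2 and 23.8 CPM in controls and 28.5, 23.2 and 25.2 CPM with DAPT. The groups overlapped through control replicates 2 and 3 and DAPT replicate 2. The log2 fold change of 0.23 (standard error 0.09) did not pass the test (unadjusted p = 0.0237, adjusted p = 0.063, edgeR). Without control replicate 1 it was 0.13 (adjusted p = 0.268, edgeR). *JUN* passed without control replicate 3 (log2 fold change 0.28, adjusted p = 0.0424, edgeR) and without DAPT replicate 2 (0.30, adjusted p = 0.036, edgeR). With all libraries it also passed with no low-count filter (adjusted p = 0.0444, edgeR) and with library size alone (adjusted p = 0.022, edgeR). This call thus turned on single libraries, the filter and the scaling.

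**Figure D2:**
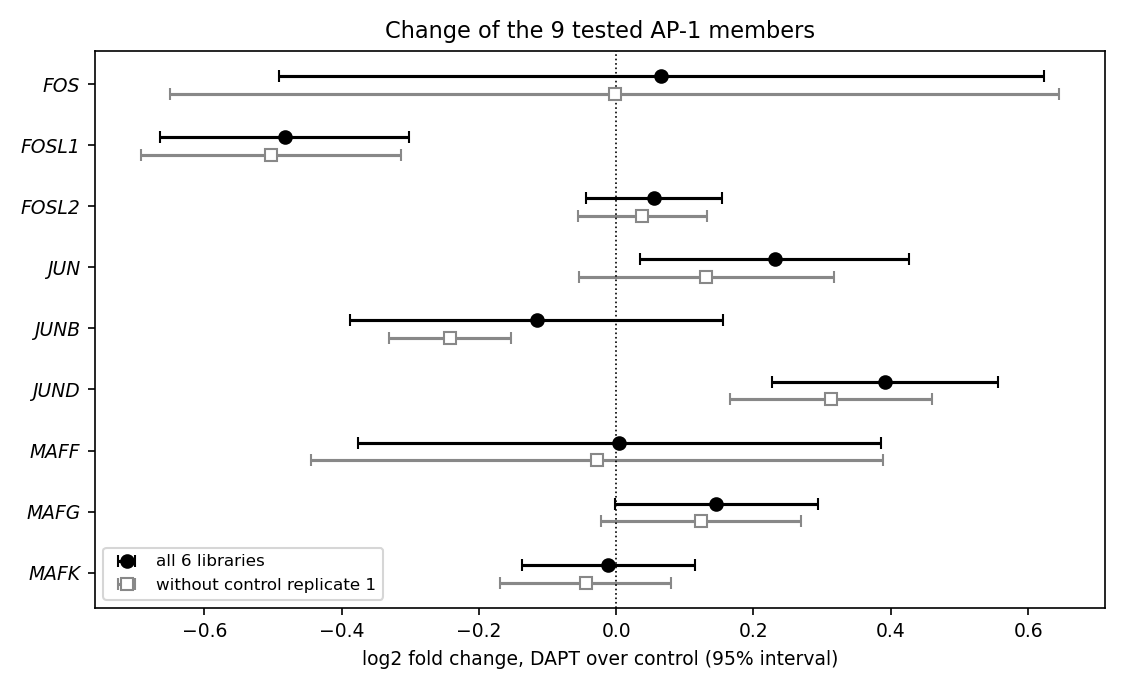
Log2 fold change, DAPT over control (x axis), of the 9 tested members with 95% intervals, from all 6 libraries (filled circles) and without control replicate 1 (open squares). The intervals of *FOSL1* and *JUND* lie away from 0 in both fits, that of *JUN* only with all 6 libraries, and that of *JUNB* only without control replicate 1.

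The regions just before the starts of *JUND* and *JUNB* are shown because these neighbours in function, both single-exon genes of chromosome 19, gave different calls. The sequences are those of RefSeq (GRCh38.p14), 250 bases before the annotated start, and capitals mark CRE (TGACGTCA) and CCAAT box (CCAAT, either strand) matches. *JUND* is on the reverse strand at chr19:18281623-18281872 and *JUNB* on the forward strand at chr19:12791236-12791485.
JUND: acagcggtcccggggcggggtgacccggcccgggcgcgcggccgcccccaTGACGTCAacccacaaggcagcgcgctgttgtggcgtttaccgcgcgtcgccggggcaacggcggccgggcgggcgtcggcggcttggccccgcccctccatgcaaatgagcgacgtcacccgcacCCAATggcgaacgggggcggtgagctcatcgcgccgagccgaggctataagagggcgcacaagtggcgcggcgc
JUNB: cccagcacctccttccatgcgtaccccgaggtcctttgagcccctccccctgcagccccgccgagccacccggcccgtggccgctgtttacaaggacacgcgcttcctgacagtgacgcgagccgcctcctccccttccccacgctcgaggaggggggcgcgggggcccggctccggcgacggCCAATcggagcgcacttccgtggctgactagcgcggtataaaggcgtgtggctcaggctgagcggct

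In this window *JUND* held a CRE, whose first base was 200 bases before the start, and both genes held a CCAAT box, at 74 bases before the start in *JUND* and 67 in *JUNB*. RefSeq windows were matched for 8 members, *MAFF* having 2 of them, and *FOSL1* and *MAFK* were without an entry. A member was counted if any of its windows matched, whereas the background counts single windows. The CRE occurred in 2 of these 8 members (*JUND* and *MAFF*) and in 1.65% of all 35116 windows, and the CCAAT box in 4 of 8 members and 32.0% of all windows. The TRE (TGACTCA, both strands) was found in 0 of 8 members and in 4.2% of all windows. *JUN* held the related TGACATCA, with its first base 67 bases before the RefSeq start, which 2.37% of windows contain. The Ensembl exon of *JUN* reaches past this start and covers the whole *JUN* window. The windows of *FOSL2* and *MAFF* also lie inside the Ensembl spans of these genes, so they are not upstream in that annotation. The core of the site of RBPJ, the DNA-binding partner of Notch (TGGGAA, both strands), occurred in *JUN* and in 1 of the 2 *MAFF* windows. It was found in 20.8% of all windows. These letter matches describe the windows alone and show no binding.

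The small MAF genes did not pass the test. *MAFG* (ENSG00000197063, chromosome 17, 81918270 to 81927735, reverse strand), a common partner of NRF2, was at 34.4, 36.5 and 35.4 CPM in controls and 38.1, 41.3 and 38.1 CPM with DAPT. The DAPT libraries all exceeded the controls, at a log2 fold change of 0.15 (its standard error being 0.07, 95% interval -0.0021 to 0.29, adjusted p = 0.118, edgeR). It passed with scaling by library size alone, at 0.19 (adjusted p = 0.0388, edgeR). Exons of *SIRT7* on the same strand cover 2% of its exonic bases, where the counting defaults leave reads out.

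*MAFK* (ENSG00000198517, chromosome 7, 1530702 to 1543043, forward strand), the most abundant small MAF gene, was at 63.6, 68.4 and 67.7 CPM in controls and 61.4, 67.8 and 68.9 CPM with DAPT. Both groups covered nearly the same range. The log2 fold change was -0.01 (95% interval -0.14 to 0.11, adjusted p = 0.903, edgeR), which bounds the change between 0.909-fold and 1.08-fold. *MAFF* (ENSG00000185022, chromosome 22, 38200767 to 38216507, forward strand), the small MAF gene that responds to inflammatory signals, was at 3.74, 3.32 and 4.72 CPM in controls and 3.31, 4.02 and 4.46 CPM with DAPT. Its groups overlapped throughout, and its interval was wider, from 0.770-fold to 1.31-fold (adjusted p = 0.990, edgeR).

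Levels were compared between genes as CPM per kilobase of exonic length, the union of the exons in the tables. In the controls *JUNB* was highest, with a median of 250.4 CPM per kilobase, and its mean was 8.98 times that of *FOSL2*, the next gene. After *FOSL2* (median 25.96) came *JUND* (21.9) and *FOSL1* (19.4), whose ranges overlapped, so that their order was not resolved. *MAFK* (15.1), then *MAFG* (6.75) and *JUN* (6.55) followed, the last pair again with overlapping ranges. *MAFF* (0.666), *FOS* (0.408) and *FOSB* (0.0780) were lowest, each with a range apart from its neighbours. With DAPT, *JUNB* was again first (214.8), *JUND* (27.7) overlapped *FOSL2* (26.7), and *FOSL1* (14.5) overlapped *MAFK* (15.2). A union of exons overstates the length where cells use a short isoform, which lowers these values for genes with several exons.

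Within the FOS subfamily, *FOSL1* made up 43.1%, 40.0% and 46.5% of the summed CPM per kilobase in the controls and 35.6%, 34.8% and 32.7% with DAPT. *FOSL2* supplied nearly all of the rest, and the ratio of *FOSL2* to *FOSL1* was 1.12 to 1.47 in controls and 1.77 to 2.02 with DAPT. The subfamily sum was 46.5 ± 2.78 CPM per kilobase (SD, n = 3) in controls and 41.7 ± 0.417 (SD, n = 3) with DAPT. *FOS* contributed 0.868% to 1.11% in any library.

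*JUNB* made up 88.8%, 89.7% and 89.96% of the JUN sum in controls and 85.8%, 85.7% and 86.8% with DAPT. The share of *JUND* was 8.69%, 7.92% and 7.68% in controls and 10.99%, 11.7% and 10.2% with DAPT. In both of these shares the groups did not overlap, control replicate 1 included. Shares are ratios within a library that add up to the whole, so a larger *JUND* share lowers the *JUNB* share. They are therefore not separate observations, and a fall of *JUNB* itself cannot be read from its share. How often shares of other genes part in this way was not determined. The JUN sum itself was 213, 279 and 285 CPM per kilobase in controls and 252, 251 and 242 with DAPT, so the groups overlapped there. In the small MAF sum, which was 22.3 ± 0.781 CPM per kilobase (SD, n = 3) in controls and 22.9 ± 1.18 (SD, n = 3) with DAPT, *MAFK* held 66.6% and 64.3% on average.

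**Figure D3:**
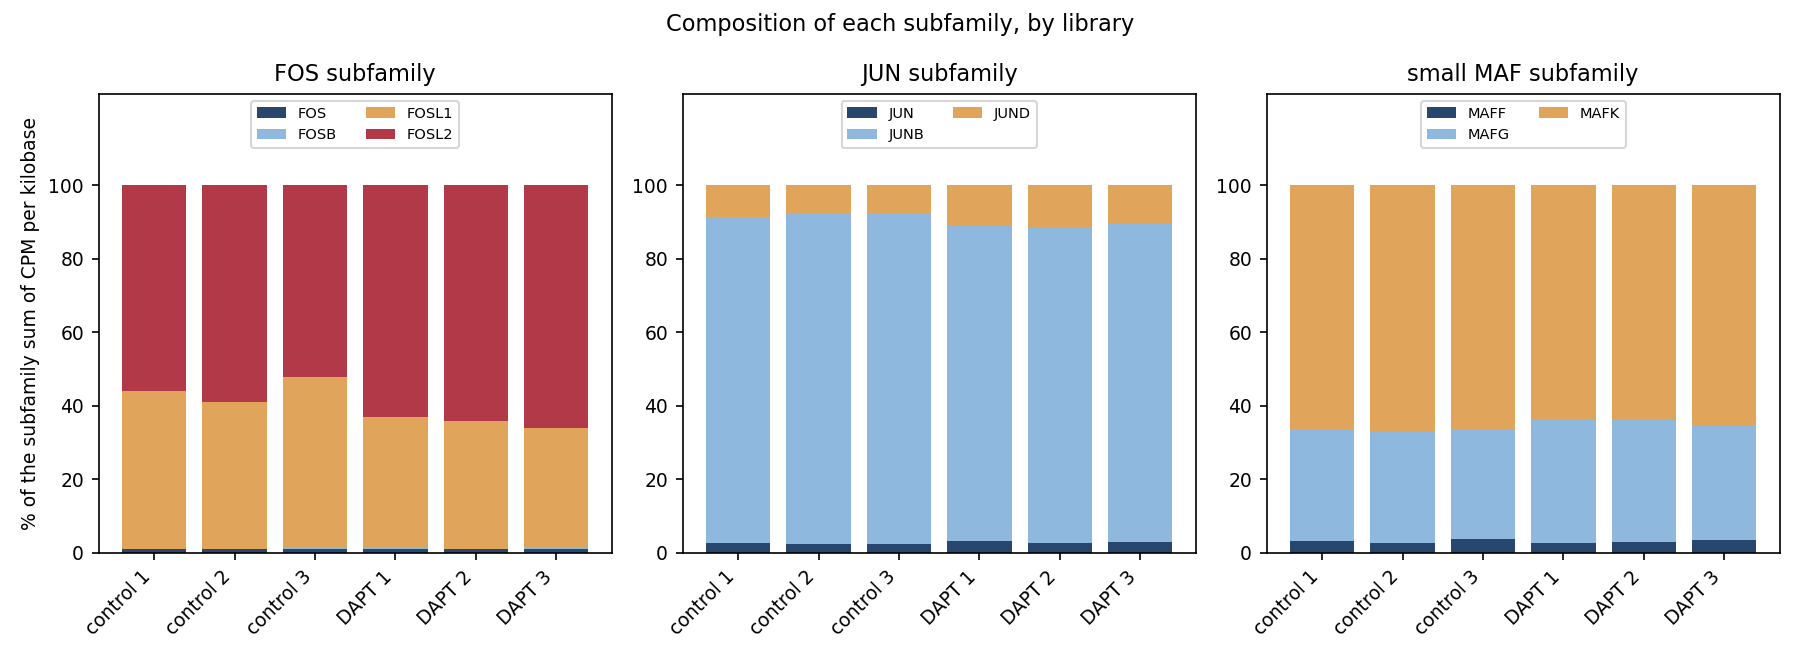
Share of each member (stacked bars, percent of the subfamily sum of CPM per kilobase) in every library of the FOS, JUN and small MAF subfamilies. *FOSL1* takes a smaller part of the FOS bars with DAPT than in controls, and *JUND* a larger part of the JUN bars.

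AP-1 proteins also pair with other zipper factors, and 15 of 18 such partner genes were tested. With DAPT, 5 were higher and 3 lower at an adjusted p under 0.05 (53.3%, against 35.2% of all tested genes), with a median log2 fold change of 0.17 against 0.01. Without control replicate 1 the list had 7 higher and 2 lower genes. *JDP2*, which encodes a repressor that binds JUN proteins, was at 16.9, 16.9 and 17.1 CPM in controls and 37.8, 34.0 and 35.1 CPM with DAPT. That gave the highest log2 fold change of the list, at 1.07 (standard error 0.08, adjusted p = 5.69e-10, edgeR). *ATF4*, the effector of the integrated stress response, rose from 147 ± 5.07 to 210.1 ± 11.1 CPM (SD, n = 3 each). The stress-induced *ATF3* was much lower, at 2.98 ± 0.226 CPM in controls and 4.81 ± 0.221 CPM with DAPT (SD, n = 3 each, log2 fold change 0.68, adjusted p = 0.00317, edgeR). *ATF2*, a JUN partner at the CRE, rose slightly (log2 fold change 0.17, adjusted p = 0.0238, edgeR).

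Among the partners of the small MAF proteins, *NFE2L1*, a regulator of proteasome genes, rose from 515 ± 6.91 to 660.1 ± 17.9 CPM (SD, n = 3 each). *NFE2L3* fell from 59.99 ± 4.56 to 45.3 ± 1.21 CPM and *NFE2*, a factor of blood cell precursors, from 4.92 ± 0.447 to 3.24 ± 0.327 CPM (SD, n = 3 each). *NFE2L2*, which encodes NRF2, had a log2 fold change of 0.11 and did not pass (adjusted p = 0.0866, edgeR), and it passed without control replicate 1 (0.12, adjusted p = 0.0439, edgeR). The repressor genes *BACH1* (0.09) and *BACH2* (0.29) did not pass. *MAFA*, a large MAF gene, was called lower (log2 fold change -0.996, adjusted p = 0.0376, edgeR) with only 9 to 38 reads per library and overlapping groups, and lost the call without control replicate 1 (adjusted p = 0.119, edgeR). *ATF7* (0.17), *BATF2* (0.25) and *NRL* (0.50) did not pass either. *BATF*, *BATF3* and *MAF* had at most 8 reads in any library and were not tested.

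All 39 genes of a list of MAP kinases, their activators, serum response factors and regulators of AP-1 protein were tested. Of these, 5 were higher and 6 lower with DAPT (28.2%, against 35.2% of all tested genes), and the median log2 fold change was 0.02. Without control replicate 1, 5 were higher and 7 lower. The changes were small, between -0.41 and 0.38. *ELK3*, which encodes a partner of serum response factor, fell from 74.7 ± 2.13 to 56.2 ± 2.81 CPM (SD, n = 3 each, log2 fold change -0.41, adjusted p = 1.22e-05, edgeR), and its relative *ELK4* rose (0.21, adjusted p = 0.00824, edgeR). Other higher genes were *MAP2K5*, the activator of ERK5 (0.38), *BRAF*, a kinase upstream of ERK (0.33), and *MRTFB*, a coactivator of serum response factor (0.28). Other lower genes were the p38 activator *MAP2K6* (-0.27), *RPS6KA1*, an ERK effector (-0.21, with overlapping groups), and *MAP3K1*, upstream of JNK (-0.20).

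Of 30 other immediate early genes, which growth factors and stress induce along with *FOS* and *JUN*, 26 were tested, and 5 were higher and 6 lower (42.3%, against 35.2% of all tested genes, with a median log2 fold change of -0.06). Leaving out control replicate 1 also gave 5 higher and 6 lower genes, of 27 tested. *EGR1*, a zinc finger factor of the serum response, was at 28.2, 24.8 and 28.2 CPM in controls and 53.5, 47.5 and 46.1 CPM with DAPT. *PPP1R15A* (GADD34), which reverses the block of translation in stress, rose from 36.8 ± 1.91 to 76.1 ± 5.62 CPM (SD, n = 3 each, log2 fold change 1.05, adjusted p = 8.2e-11, edgeR). *KLF4*, a factor of epithelial differentiation, rose from 12.95 ± 0.115 to 22.6 ± 0.779 CPM and *ARC* from 2.51 ± 0.767 to 4.52 ± 0.757 CPM (SD, n = 3 each). In the other direction, *MYC* fell from 70.9 ± 2.96 to 41.5 ± 0.604 CPM and *IER5* from 110.9 ± 9.94 to 70.7 ± 3.23 CPM (SD, n = 3 each). *NR4A1* (log2 fold change -0.72, adjusted p = 0.0226, edgeR) and *CCN2* (-0.93, adjusted p = 0.00509, edgeR) had between 23 and 111 reads per library. The groups overlapped in *NR4A1*. *CCN2*, a matrix protein gene also expressed by fibroblasts, was at 6.91 CPM in control replicate 1 and at 3.47 and 4.22 CPM in the other controls, and without that library its log2 fold change was -0.56 (adjusted p = 0.0410, edgeR). The members of the group thus moved in both directions.

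Of 33 genes known as AP-1 targets in other systems, 27 were tested, of which 15 were lower and 5 higher (74.1%, against 35.2% of all tested genes), with a median log2 fold change of -0.33. The collagenase genes *MMP1* (log2 fold change -2.05) and *MMP13* (-1.84), the stromelysin gene *MMP10* (-2.42) and the chemokine gene *CCL2* (-2.90) fell furthest. *MMP10*, *MMP1* and *MMP13* lie close together on chromosome 11, between 102770502 and 102955732. Whether their falls are separate observations was not tested. *MMP13* was at 43.7, 42.5 and 43.2 CPM in controls and 11.6, 12.6 and 11.985 CPM with DAPT. *CCL2* fell from 12.3 ± 0.923 to 1.65 ± 0.136 CPM (SD, n = 3 each, adjusted p = 3.69e-12, edgeR). Among the higher genes were *IL6*, a cytokine gene (0.51, adjusted p = 0.0014, edgeR), *PLAU*, the gene of urokinase (0.46), *HBEGF*, an EGF receptor ligand gene (0.35, adjusted p = 0.0200, edgeR), and *VEGFA*, a vascular growth factor gene (0.28). *PLAU* rose from 387 ± 6.76 to 531 ± 23.4 CPM (SD, n = 3 each). *VIM*, the mesenchymal intermediate filament gene, had 3849 reads in control replicate 1 and 12 to 31 in the other libraries, and gave no call (adjusted p = 0.198, edgeR). Without that library 15 target genes were again lower and 5 higher. The targets are also regulated by other factors, and these data hold no measure of AP-1 protein or of its binding.

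**Figure D4:**
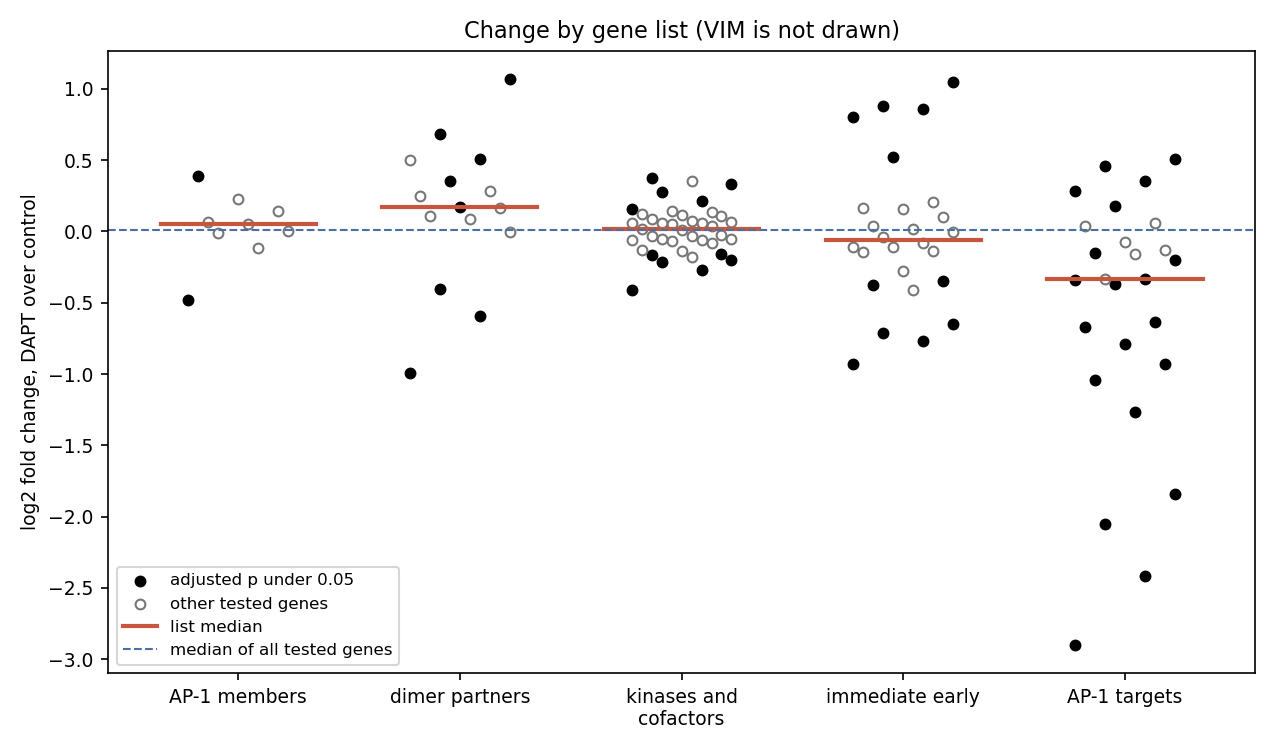
Log2 fold change, DAPT over control (y axis), of the tested genes of each list, filled where the adjusted p was under 0.05, with the list median (solid line) and the median of all tested genes, 0.01 (dashed line). The 9 members stay between -0.48 and 0.39, while the AP-1 target list reaches from -2.90 to 0.51, leaving out *VIM*.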

How the data were processed

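Reads of 6 HSC-4 libraries were trimmed with Trim Galore and mapped to GRCh38 with HISAT2 by the authors. The deposited values are read counts per Ensembl gene (release 96), made per library by featureCounts 1.6.3 over exons with a strand setting, without normalization or pooling. The submitters' processing notes also name HTSeq and DESeq2, and the paper names edgeR. Coordinates and exonic lengths are those of the tables.

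Symbols were matched by Ensembl identifier (58472 of 58884 genes). Counts were analysed with edgeR 4.0.16 in R 4.3.3 (filter on low counts by group with a minimum of 10, TMM, robust quasi-likelihood test, DAPT minus control, Benjamini-Hochberg adjustment over 15001 genes, threshold 0.05). Standard errors are the log2 fold change over the root of F. CPM values are TMM-normalized. The library totals of 12276313 to 16317672 counts limit precision for *FOS*, *FOSB* and *MAFF*. The alternatives were DESeq2 1.42.0, limma-voom (limma 3.58.1), RLE, library size alone, other filters, a fit that is not robust, a replicate block, each library left out, and a threshold of 0.01.

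The members, gene lists and tests were chosen with earlier results of these data known, and the lists were written from general knowledge. Named genes are the members, *HES1*, the tested partner genes (1 is not reported here), and of each list up to 4 genes per direction with the largest change among those called with a mean of at least 1 CPM. Marker genes, *VIM* and *NFE2L2* without 1 control are named because a library or a call turned on them. Procedures were tested on simulated data. Replicate numbers were taken from the titles. Pairs of libraries of 1 group differed by more than sampling noise.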

Additional observations from a re-analysis of the deposited data

How the results depend on the processing

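*FOSL1*, *JUND* and *HES1* kept direction and call under all 15 alternatives. The number of called members was 4 with scaling by library size alone, where *JUN* (0.28) and *MAFG* (0.19) also passed. It was 3 with no low-count filter, where *JUN* passed (0.23, adjusted p = 0.0444, edgeR), and 2 or 3 when each library was left out. When each library was left out in turn, the log2 fold change ranged from 0.13 to 0.30 for *JUN*, -0.242 to -0.0437 for *JUNB*, -0.0023 to 0.16 for *FOS*, -0.10 to 0.14 for *MAFF* and -0.0443 to 0.0402 for *MAFK*, while the called genes of the upstream list ranged from 7 to 12. *MAFF* was at -0.000271 with DESeq2 and at -0.000836 with the replicate block, and *MAFK* at 0.0356 with library size alone. The signs of *FOS*, *MAFF* and *MAFK* are thus undetermined. A threshold of 0.01 gave 3338 genes in all and 6 of the upstream list. The cause of these shifts was not tested, other than the stricter threshold itself. The deviations of same-numbered libraries correlated at 0.00 to 0.03. With 3 libraries per group this cannot show whether same-numbered libraries are related. The replicate block gave no member a different call (*JUND* 0.39, adjusted p = 0.00115, edgeR). Depth limits *FOS*, *FOSB* and *MAFF*.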
